A study of Mus musculus with 11 samples.

Results

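Cd274, Cd47, Cd80, Cd86, Cd200, Lgals9, Havcr2 and Cd33 are 8 genes of immune checkpoint ligands and leukaemia surface antigens. They were found in a mouse acute myeloid leukaemia (AML) count table by matching Ensembl identifiers to these symbols, and all 8 were among its 55487 genes. The matching used no measured value, but the 8 were chosen with earlier results of these data known. A filter on low counts kept 7 of them for testing among 14521 genes, and Cd200 fell below it.

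A checkpoint ligand is a surface or secreted protein that a tumour cell presents to a receptor on an immune cell, and the receptor then dampens or permits the immune response. PD-L1, the product of Cd274, binds PD-1 on T cells and is a well-known target of interferon signalling. CD47 binds SIRPα on macrophages and restrains phagocytosis, and TIM-3 (Havcr2) with its ligand galectin-9 (Lgals9) and the sialic-acid-binding receptor CD33 are known in human AML as antigens of leukaemic cells.

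Bulk RNA sequencing was done on AML of mice that carried Flt3-ITD, an activating duplication in the cytokine receptor gene Flt3, and NHD13, a NUP98-HOXD13 fusion transgene, in every sample. The labels give 6 libraries as Ifnar1 +/- and 5 as Ifnar1 -/-, that is, with 1 or no functional copy of a subunit gene of the type I interferon receptor. The series' design text speaks of HPCs from mice of these genotypes. The labels used here give no age, treatment or promoter, and no label ties the libraries to separate animals, so a p-value measures only the spread between these samples, whose biological and technical parts cannot be told apart. Libraries of one genotype differed beyond counting error, with a chi-square of 59.0 to 977 per gene between pairs, where counting error alone gives about 1. The libraries held 25583642 to 38728143 estimated counts in total and detected 13293 to 14754 genes with 10 counts or more. Levels are CPM, which divides each count by the size of its library, after TMM scaling, a correction for RNA composition.

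Some libraries stood apart, and this bears on the results. Ifnar1 RNA did not separate the genotypes, with 39.3 to 84.5 CPM in Ifnar1 +/- and 36.3 to 133 CPM in Ifnar1 -/- libraries. A count over the whole gene cannot show a partial deletion, so a library is named here by its labelled genotype and number, and each direction between genotypes rests on the labels. Ebf1, a transcription factor that starts the B-cell programme, split the libraries across a wide gap. It had 531 to 745 CPM in Ifnar1 +/- libraries 3, 4 and 5 and Ifnar1 -/- libraries 3 and 5, called Ebf1-high here, and 0.0309 to 8.72 CPM in the other 6, called Ebf1-low. Library Ifnar1 -/- 2 contained 47695 CPM of Prg2, an eosinophil granule gene, and 762 CPM of Adgre1, a macrophage gene, against at most 1166 and 61.3 CPM elsewhere, and Ifnar1 +/- 6 was rich in globin RNA. Because RNA came from whole samples, fewer cells of a type and less RNA per cell cannot be told apart in any value below.

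The 8 genes lie on 4 chromosomes in the GENCODE M21 annotation of GRCm38, and all are annotated as protein-coding. Cd274 (ENSMUSG00000016496) lies on the plus strand at chr19:29367455-29388095, where an antisense gene overlaps it. That antisense gene had at most 36 counts in a library, and the labels do not say whether counting used strand. Cd47 (ENSMUSG00000055447, chr16:49800533-49915010, plus strand), Cd200 (ENSMUSG00000022661, chr16:45382135-45409053, minus strand), Cd80 (ENSMUSG00000075122, chr16:38455561-38496335, plus strand) and Cd86 (ENSMUSG00000022901, chr16:36603869-36666081, minus strand) share chromosome 16 with Ifnar1. Their distances from Ifnar1 were 41.6, 46.1, 53.0 and 54.8 megabases, in that order. Lgals9 (ENSMUSG00000001123, chr11:78962974-78984946, minus strand) and Havcr2 (ENSMUSG00000020399, chr11:46454935-46481255, plus strand) lie on chromosome 11, and Cd33 (ENSMUSG00000004609, chr7:43524216-43544428, minus strand) on chromosome 7.

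Promoter windows of 250 bases upstream of the start were taken from RefSeq on GRCm38.p6 for 7 of the 8 genes, of which Cd47 had a pair of overlapping windows. Those of Cd274, Havcr2 and Cd33 are printed because these 3 genes were lower where Ebf1 was higher, and that of Lgals9 because it shares a motif with Cd274. Each reads 5′ to 3′ on the gene's strand, and capitals mark a match to GAAANNGAA, the core of the interferon-stimulated response element, on either strand. The windows are chr19:29367188-29367437 (plus) for Cd274, chr11:46454681-46454930 (plus) for Havcr2, chr7:43533172-43533421 (minus) for Cd33 and chr11:78984925-78985174 (minus) for Lgals9. The Cd33 window lies inside the span that GENCODE gives the gene.
Cd274: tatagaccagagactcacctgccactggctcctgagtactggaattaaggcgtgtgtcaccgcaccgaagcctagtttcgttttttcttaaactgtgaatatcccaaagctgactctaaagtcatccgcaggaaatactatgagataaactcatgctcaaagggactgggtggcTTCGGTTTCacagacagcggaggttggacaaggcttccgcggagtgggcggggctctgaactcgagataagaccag
Havcr2: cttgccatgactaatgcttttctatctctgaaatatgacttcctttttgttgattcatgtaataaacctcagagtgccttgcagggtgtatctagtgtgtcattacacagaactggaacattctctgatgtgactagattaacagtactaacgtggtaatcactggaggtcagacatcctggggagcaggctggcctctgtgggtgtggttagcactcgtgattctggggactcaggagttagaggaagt
Cd33: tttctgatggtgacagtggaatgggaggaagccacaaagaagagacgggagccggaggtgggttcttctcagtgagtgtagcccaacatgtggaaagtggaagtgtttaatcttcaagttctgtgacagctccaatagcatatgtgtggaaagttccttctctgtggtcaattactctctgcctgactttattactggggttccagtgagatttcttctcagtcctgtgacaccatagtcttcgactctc
Lgals9: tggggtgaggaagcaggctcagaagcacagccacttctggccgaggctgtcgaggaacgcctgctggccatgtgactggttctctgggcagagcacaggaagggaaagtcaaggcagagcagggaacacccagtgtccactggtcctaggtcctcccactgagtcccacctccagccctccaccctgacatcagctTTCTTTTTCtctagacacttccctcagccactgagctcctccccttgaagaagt

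The response-element core was present in Cd274, starting 76 bases before the start, and in Lgals9, starting 54 bases before it, both on the opposite strand. It was not among the letters of the other 5 genes' windows. Of 32851 mouse promoter windows of this length, 7.13% held it. TTCNNNGAA, a STAT site that reads the same on both strands, was in no window of the 7 genes and in 7.02% of all promoters. CCCNNGGG, the EBF1 core that also reads the same on both strands, was in the windows of Cd47 only and in 11.8% of all promoters. These matches describe the letters of the windows, and no binding was measured.

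Taken per kilobase of exon, the 8 genes spanned a wide range of RNA levels. Lgals9 was highest, with a median of 722 CPM per kilobase over the 11 libraries, followed by Cd47 with 77.9 CPM per kilobase. Havcr2 had a median of 11.95, Cd274 of 6.98 and Cd33 of 2.45 CPM per kilobase. The B7 ligand genes Cd86 and Cd80 had 0.489 and 0.104 CPM per kilobase, and Cd200 had 0.0444 CPM per kilobase. Lgals9 was above Cd47 in all 11 libraries. Neighbours further down the order changed places in some libraries, since Cd47 was above Havcr2 in 8, Havcr2 above Cd274 in 9, Cd274 above Cd33 in 8, Cd33 above Cd86 in 10, Cd86 above Cd80 in 8 and Cd80 above Cd200 in 7 of 11.

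In the comparison of Ifnar1 -/- with Ifnar1 +/- libraries, which asks what loss of the type I interferon receptor does, none of the 7 tested genes passed. EdgeR's quasi-likelihood test gave each an adjusted p of 0.9998, and 0 of the 7 had an unadjusted p under 0.05. Across all genes tested, 0% (0 of 14521) passed, 289 had an unadjusted p under 0.05, and DESeq2 called 3 genes, none of them among the 8. The ranges of the genotypes overlapped for each of the 8 genes, and 0.124% of all genes had ranges that did not overlap. Of the 7 genes, 4 had lower and 3 had higher fitted values in Ifnar1 -/- libraries, with a median log2 fold change of -0.05 against -0.015 over all genes.

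**Figure D1:**
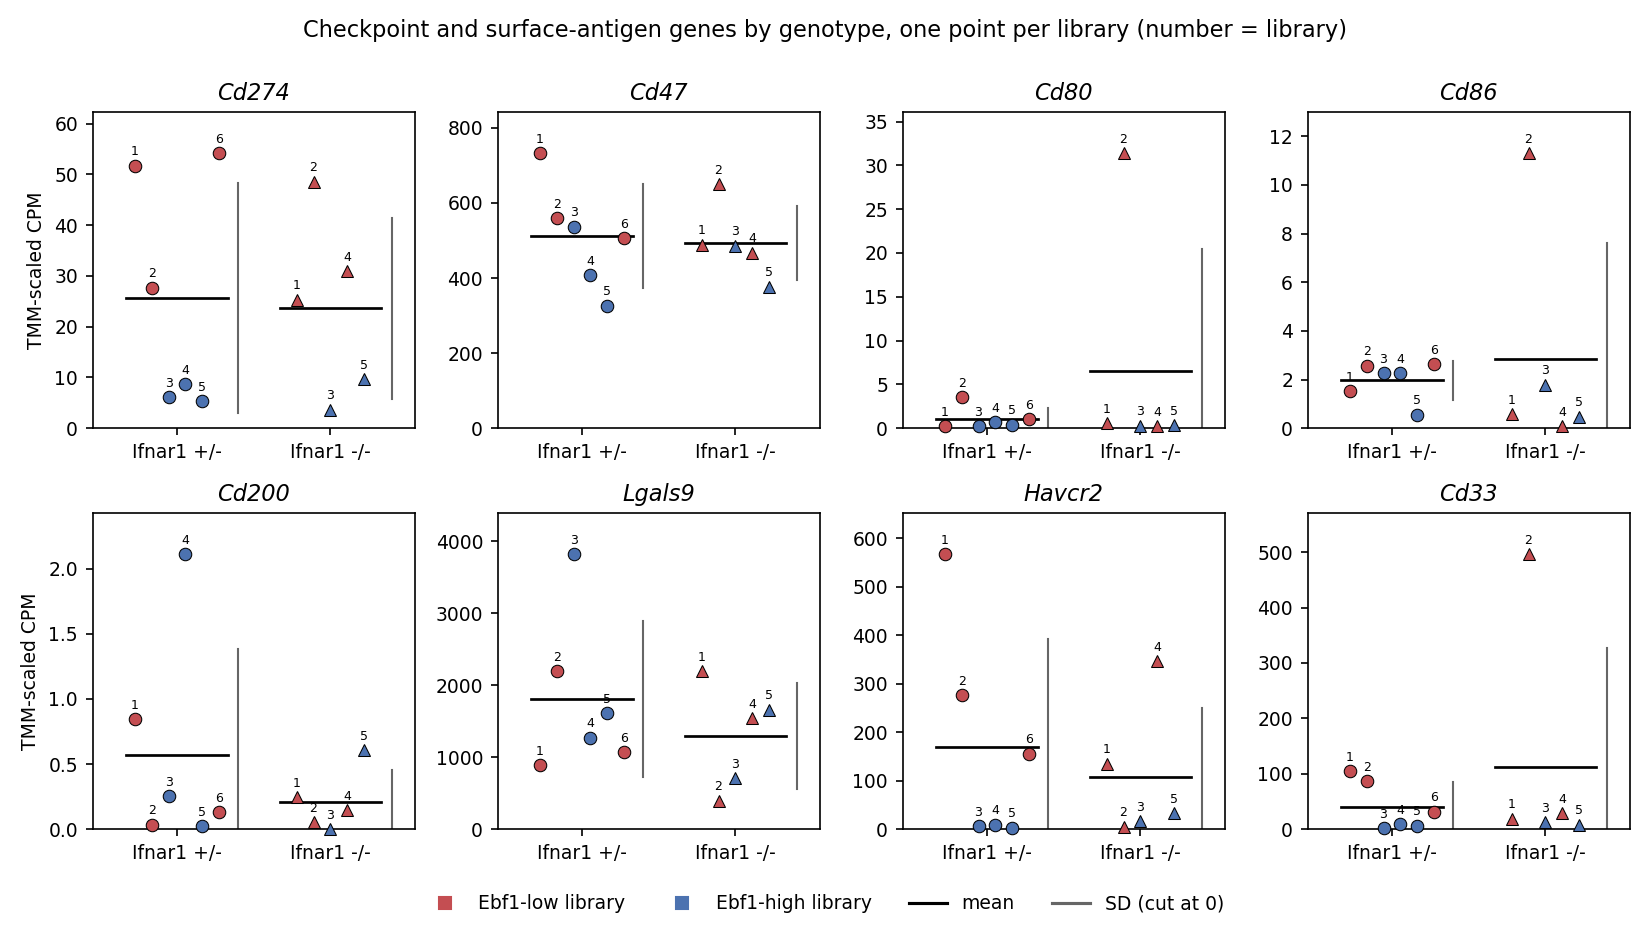
Levels of the 8 genes in TMM-scaled CPM on linear axes from 0, by labelled genotype, with 1 point per library, the library number beside it, a black line at the mean and a grey line for 1 SD. Colour gives the Ebf1 class. The genotypes overlap in every panel, and Ifnar1 -/- library 2 lies far above the rest for Cd80 (31.4 CPM), Cd86 (11.3 CPM) and Cd33 (496 CPM).

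With the level of Ebf1, by contrast, 3 of the 7 genes changed. Cd274, Havcr2 and Cd33 were lower where Ebf1 was higher, in an edgeR fit of log2(Ebf1 CPM + 1) beside genotype, and 0 genes were higher. Over all genes 14.7% were lower and 14.2% were higher, 28.9% in all, so that 42.9% of the 7 genes stands against 14.7% of all genes for the lower direction. That difference in share was not tested. The median slope of the 7 genes was -0.30 log2 units per log2 unit of Ebf1, against -0.0061 over all genes. Ebf1 was read in the same libraries, which fall into 2 clusters, so the slope is an association across these clusters and not a response to Ebf1. Without Ebf1 itself, 10 B-lineage marker genes were listed. The 8 of them that were tested all rose with Ebf1, and the summed level of the 10 was 10.6 to 114 CPM in Ebf1-low and 5082 to 8317 CPM in Ebf1-high libraries. Of markers of later B cells, Fcer2a had at most 0.314 CPM, and Ms4a1, the gene of CD20, had up to 0.403 CPM in Ebf1-low libraries and reached 152 CPM in Ifnar1 -/- 5. The share of B-lineage RNA in the 3 changes was not tested.

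**Figure D2:**
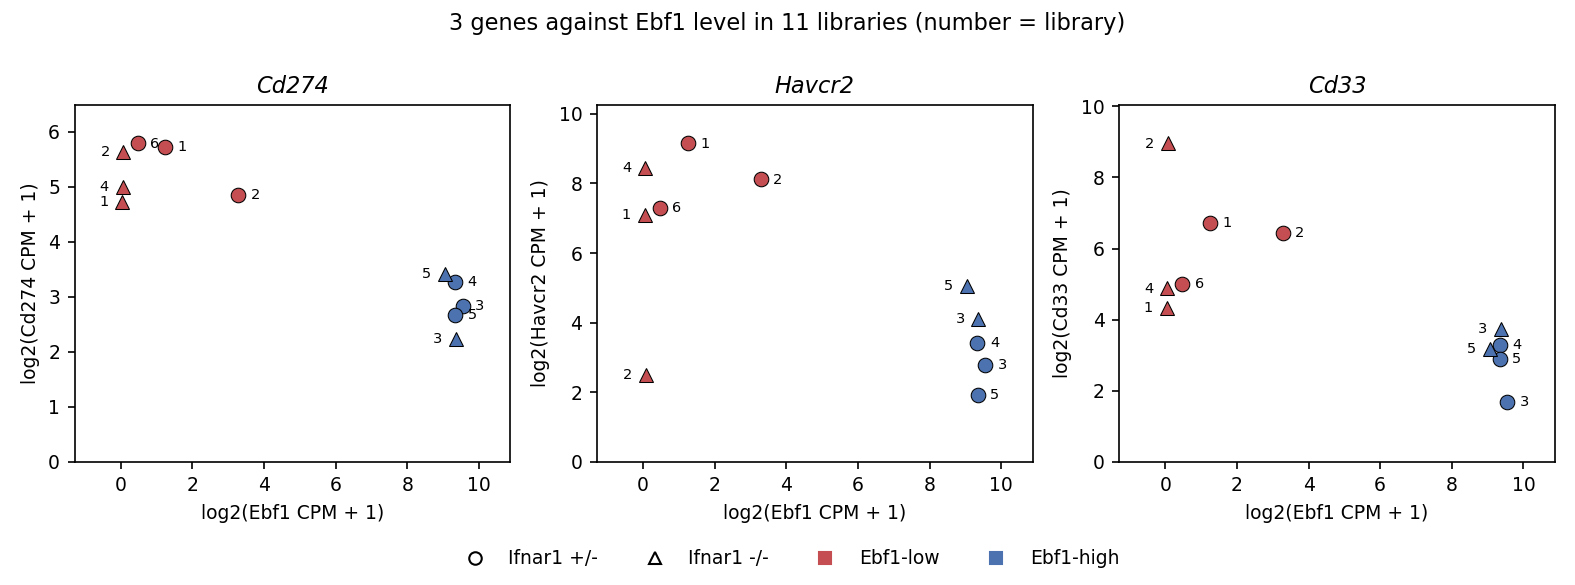
Levels of Cd274, Havcr2 and Cd33 against Ebf1, each as log2(CPM + 1), in 11 libraries marked by labelled genotype, Ebf1 class and number. The Ebf1-high libraries, with 531 to 745 CPM of Ebf1, lie below the Ebf1-low libraries for Cd274 and Cd33, and for Havcr2 Ifnar1 -/- library 2 (4.70 CPM) is the only Ebf1-low library among them.

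Cd274, the PD-L1 gene, was lower in every Ebf1-high library than in any Ebf1-low library. In Ebf1-low libraries it had 51.7, 27.7 and 54.2 CPM in Ifnar1 +/- 1, 2 and 6 and 25.3, 48.6 and 30.9 CPM in Ifnar1 -/- 1, 2 and 4. In Ebf1-high libraries it had 6.12, 8.66 and 5.36 CPM in Ifnar1 +/- 3, 4 and 5 and 3.69 and 9.66 CPM in Ifnar1 -/- 3 and 5. The medians of 39.8 and 6.12 CPM differed by a ratio of 6.50. The slope on Ebf1 was -0.30 (SE 0.036, edgeR adjusted p = 0.000474), and it passed without each library in turn, with an adjusted p of at most 0.00288. Cd274 and Cd33 were the 2 of the 8 genes whose Ebf1 classes did not overlap in this way, a pattern that 9% of all genes had.

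No difference of Cd274 between labelled genotypes passed the test. The Ifnar1 +/- mean was 25.6 ± 22.7 CPM (SD, n = 6) and the Ifnar1 -/- mean was 23.6 ± 17.8 CPM (SD, n = 5), a log2 fold change of -0.12 (SE 0.78). Within Ebf1-low libraries the fold change was -0.33 (SE 0.40) and within Ebf1-high libraries -0.0071 (SE 0.48), both on the log2 scale and neither past the threshold. The sign over all libraries was not stable, running from -0.56 without Ifnar1 -/- 2 to 0.25 without Ifnar1 +/- 6.

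Neighbours and regulators of Cd274 were set beside it. Pdcd1lg2, the gene of the other PD-1 ligand PD-L2, begins 22.8 kilobases after the end of Cd274, and Jak2, a kinase of cytokine and interferon gamma signalling, lies before it at chr19:29251828-29313080. Their values per library, like those of Pdcd1 further on, were singled out after being seen. Pdcd1lg2 had 59.96, 16.7 and 28.1 CPM in Ifnar1 +/- 1, 2 and 6 and 9.73, 4.23 and 20.2 CPM in Ifnar1 -/- 1, 2 and 4, and 1.23 to 3.58 CPM in the 5 Ebf1-high libraries. It was lower with Ebf1 (slope -0.36, SE 0.075, edgeR adjusted p = 0.00667), and its Ebf1 classes did not overlap. Jak2 had 18.3 to 31.0 CPM in Ebf1-low and 4.68 to 7.26 CPM in Ebf1-high libraries and was also lower (slope -0.23, SE 0.033, edgeR adjusted p = 0.00132). The 3 genes thus shared a direction, while Ifnar1 -/- 2 was high in Cd274 and Jak2 and low in Pdcd1lg2 among Ebf1-low libraries.

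Pdcd1, which encodes PD-1, the receptor of both ligands, was abundant in AML RNA. It had 3236, 2533 and 1212 CPM in Ifnar1 +/- 1, 2 and 6 and 2144 and 3794 CPM in Ifnar1 -/- 1 and 4. It had 15.6 CPM in Ifnar1 -/- 2, the remaining Ebf1-low library. In Ebf1-high libraries it had 53.0, 43.2 and 20.4 CPM in Ifnar1 +/- 3, 4 and 5 and 9.24 and 303 CPM in Ifnar1 -/- 3 and 5. High levels were thus found in 5 of 6 Ebf1-low libraries of both genotypes, and the classes overlapped through Ifnar1 -/- 2. The slope was -0.55 (SE 0.17, edgeR adjusted p = 0.0366). Among the fits that left out a library the adjusted p ran from 0.00786 without Ifnar1 -/- 2 to 0.0876 without Ifnar1 +/- 4, and it missed the threshold without Ifnar1 +/- 1, 3, 4 or 5 or Ifnar1 -/- 3 or 4 and with no filter on low counts (0.0558). Of the 12 T-cell and NK-cell markers listed, 7 were under 1 CPM in every library. Among them the T-cell markers Cd3e and Cd8a had at most 0.357 and 0.130 CPM. The other T-cell receptor complex genes Cd3d and Cd3g reached 18.4 and 5.99 CPM in Ifnar1 -/- 2 and at most 0.869 and 0.216 CPM elsewhere. Cd4 reached 9.31 CPM in Ifnar1 -/- 3, and the NK-cell marker Klrb1c reached 60.2 CPM in Ifnar1 +/- 4. The sum of the 12 markers ran from 6.77 to 296 CPM in Ebf1-low and from 10.8 to 62.7 CPM in Ebf1-high libraries. The constant-region gene Trac reached 289, 164 and 184 CPM in Ifnar1 +/- 2, Ifnar1 -/- 1 and Ifnar1 -/- 4. Its level was 48.9 CPM in Ifnar1 -/- 5, the highest of the Ebf1-high libraries for both Trac and Pdcd1. Ifnar1 +/- 6, with 1212 CPM of Pdcd1, contained 27.0 CPM of Trac. No other library exceeded the 4.19 CPM of Ifnar1 +/- 1, where Pdcd1 was 3236 CPM. The part of T-cell RNA in the Pdcd1 levels was not tested.

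Havcr2, the TIM-3 gene, had the widest spread within each Ebf1 class, as a ratio of the highest to the lowest library, among the 3 genes that changed with Ebf1. In Ebf1-low libraries it had 567, 277 and 156 CPM in Ifnar1 +/- 1, 2 and 6 and 135, 4.70 and 346 CPM in Ifnar1 -/- 1, 2 and 4. In Ebf1-high libraries it had 5.91, 9.60 and 2.82 CPM in Ifnar1 +/- 3, 4 and 5 and 16.3 and 32.5 CPM in Ifnar1 -/- 3 and 5. Ifnar1 -/- 2 thus stood with the Ebf1-high libraries, as it did for Pdcd1. The slope was -0.48 (SE 0.14, edgeR adjusted p = 0.0302), and without Ifnar1 -/- 2 it was -0.55 (SE 0.11, edgeR adjusted p = 0.00523). The call was lost without Ifnar1 +/- 1, 3, 4 or 5 or Ifnar1 -/- 3 or 4, with an edgeR adjusted p of 0.0549 to 0.0783.

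Labelled genotype did not separate Havcr2 over all libraries. The Ifnar1 +/- mean was 170 ± 224 CPM (SD, n = 6) and the Ifnar1 -/- mean was 107 ± 143 CPM (SD, n = 5), a log2 fold change of -0.67 (SE 1.40). Within the Ebf1 classes the sign differed, at -1.02 (SE 1.25) in Ebf1-low and 2.002 (SE 0.57) in Ebf1-high libraries. The Ebf1-high value rested on 2 Ifnar1 -/- and 3 Ifnar1 +/- libraries. Neither fold change passed the threshold, and the difference between the classes was not tested.

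Lgals9, which encodes the TIM-3 ligand galectin-9, was abundant in every library and followed neither comparison. It had 891, 2197 and 1072 CPM in Ifnar1 +/- 1, 2 and 6 and 2197, 395 and 1543 CPM in Ifnar1 -/- 1, 2 and 4. In Ebf1-high libraries it had 3819, 1269 and 1607 CPM in Ifnar1 +/- 3, 4 and 5 and 707 and 1660 CPM in Ifnar1 -/- 3 and 5. Ifnar1 +/- 3 was highest and Ifnar1 -/- 2 lowest, and both pairs of groups overlapped. Its slope on Ebf1 was 0.040 (SE 0.061, edgeR adjusted p = 0.651). By genotype the Ifnar1 +/- mean was 1809 ± 1087 CPM (SD, n = 6) and the Ifnar1 -/- mean 1300.4 ± 736 CPM (SD, n = 5), a log2 fold change of -0.48 (SE 0.49). The difference between its slope and that of its receptor gene Havcr2 was not tested.

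Cd33, a sialic-acid-binding receptor of myeloid cells, was lower in all Ebf1-high than in all Ebf1-low libraries. In Ebf1-low libraries it had 104, 86.5 and 31.2 CPM in Ifnar1 +/- 1, 2 and 6 and 19.1, 496 and 28.4 CPM in Ifnar1 -/- 1, 2 and 4. In Ebf1-high libraries it had 2.23, 8.73 and 6.42 CPM in Ifnar1 +/- 3, 4 and 5 and 12.4 and 8.09 CPM in Ifnar1 -/- 3 and 5. The lowest Ebf1-low value, 19.1 CPM, lay above the highest Ebf1-high value, 12.4 CPM. The slope was -0.46 (SE 0.12, edgeR adjusted p = 0.0163). Without Ifnar1 -/- 2 it was -0.29 (SE 0.091, edgeR adjusted p = 0.0331), and it passed without each library in turn, with an adjusted p of at most 0.0443.

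The genotype difference of Cd33 turned on that same library. The Ifnar1 +/- mean was 39.9 ± 44.5 CPM (SD, n = 6) and the Ifnar1 -/- mean was 113 ± 214 CPM (SD, n = 5), a log2 fold change of 1.5005 (SE 1.27), which became -1.21 (SE 0.99) without Ifnar1 -/- 2. In Ifnar1 -/- 2 the 12 macrophage and monocyte markers summed to 2970 CPM, against 21.5 to 315 CPM in the other libraries. Its 10 eosinophil and mast-cell markers summed to 55781 CPM against at most 7142 CPM, and its 10 neutrophil markers to 38160 CPM against at most 6710 CPM. The share of these cells in its Cd33, Cd80 and Cd86 RNA was not tested.

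Cd80 and Cd86, which encode the B7 ligands of CD28 and CTLA-4, were at low levels outside Ifnar1 -/- 2. Cd80 had 0.201, 3.51, 0.216, 0.691, 0.386 and 1.01 CPM in Ifnar1 +/- 1 to 6 and 0.556, 31.4, 0.286, 0.221 and 0.320 CPM in Ifnar1 -/- 1 to 5. Cd86 had 1.53, 2.57, 2.27, 2.26, 0.555 and 2.63 CPM in Ifnar1 +/- 1 to 6 and 0.587, 11.3, 1.79, 0.0737 and 0.480 CPM in Ifnar1 -/- 1 to 5. The 0.0737 CPM of Ifnar1 -/- 4 rested on 2 counts, and Ifnar1 -/- 2 held the highest value of both genes. The log2 fold change by genotype was 2.70 (SE 1.45) for Cd80 and 0.53 (SE 0.99) for Cd86, and these became -1.51 (SE 0.86) and -1.42 (SE 0.76) without Ifnar1 -/- 2.

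With Ebf1, neither B7 gene passed in edgeR. The slope of Cd80 was -0.40 (SE 0.19, edgeR adjusted p = 0.139), and it passed in DESeq2 (adjusted p = 0.00667) and in edgeR with no genotype term (adjusted p = 0.0370). Over the alternatives other than a replicate block its adjusted p ran from 0.00667 in DESeq2 to 0.497 in limma voom. Without Ifnar1 -/- 2 the slope was -0.11 (SE 0.10). Cd86 had a slope of -0.12 (SE 0.12, edgeR adjusted p = 0.483), which became 0.063 (SE 0.086) without that library. Dendritic cells carry both ligands, and of 12 listed markers of these cells 4 were under 1 CPM in every library. These were Xcr1 with at most 0.619 CPM, Clec9a with at most 0.0369 CPM, Cd209a with at most 0.0516 CPM and Siglech at 0 counts, which at 3 counts allows up to 0.0724 to 0.155 CPM per library. Other markers of the list were present. Batf3 had 7.28 CPM in Ifnar1 -/- 2, where Cd80 and Cd86 were highest, and at most 2.21 CPM elsewhere. Itgax had 7.89 CPM in that library and 8.22 CPM in Ifnar1 +/- 2, and Zbtb46 reached 7.01 CPM in Ifnar1 +/- 6. Ccr7 reached 18.8 CPM and the class II gene H2-Ab1 95.9 CPM, while Ifnar1 -/- 2 had 0 and 6.29 CPM of them. The part of dendritic-cell RNA in the levels of Cd80 and Cd86 was not tested. The sum of the 12 markers, Flt3 among them, ran from 163 to 260 CPM in Ebf1-low and from 183 to 223 CPM in Ebf1-high libraries.

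Cd47, the gene of the ligand that restrains phagocytosis, had the narrowest range of the 8, as a ratio of the highest to the lowest library. It had 732, 559 and 506 CPM in Ifnar1 +/- 1, 2 and 6, 489, 650 and 468 CPM in Ifnar1 -/- 1, 2 and 4, 537, 407 and 327 CPM in Ifnar1 +/- 3, 4 and 5, and 487 and 377 CPM in Ifnar1 -/- 3 and 5. That ratio was 2.24, and Ebf1 classes and genotypes overlapped. Ifnar1 +/- libraries averaged 511 ± 139 CPM (SD, n = 6) and Ifnar1 -/- libraries averaged 494 ± 98.4 CPM (SD, n = 5), a log2 fold change of -0.05 (SE 0.22). The slope on Ebf1 was -0.047 (SE 0.022, edgeR adjusted p = 0.130). Qpctl, whose enzyme modifies CD47 so that SIRPα can bind it, was lower with Ebf1 (slope -0.10, SE 0.033, edgeR adjusted p = 0.0423), with 25.3 to 78.2 CPM in Ebf1-low and 18.6 to 26.7 CPM in Ebf1-high libraries. Its 78.2 CPM was that of Ifnar1 -/- 2, and no other library exceeded 44.9 CPM.

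Cd200, which encodes an inhibitory ligand of the receptor Cd200r1, was counted too rarely to test. Ifnar1 +/- libraries 1 to 6 had 21, 1, 7, 58, 1 and 4 counts, and Ifnar1 -/- libraries 1 to 5 had 8, 1, 0, 4 and 19 counts. In CPM the highest was 2.11 in Ifnar1 +/- 4, followed by 0.846 in Ifnar1 +/- 1. The 0 counts of Ifnar1 -/- 3 allow up to 0.107 CPM at 3 counts, for counting error only. With no filter on low counts the log2 fold change by genotype was -1.38 (SE 1.24, edgeR adjusted p = 0.798) and the slope on Ebf1 0.12 (SE 0.14, edgeR adjusted p = 0.553), so no difference was detectable at this depth. Its receptor gene Cd200r1 was lower with Ebf1 (slope -0.50, SE 0.088, edgeR adjusted p = 0.00348), with 19.95 to 152 CPM in Ebf1-low and 1.84 to 7.78 CPM in Ebf1-high libraries.

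**Figure D3:**
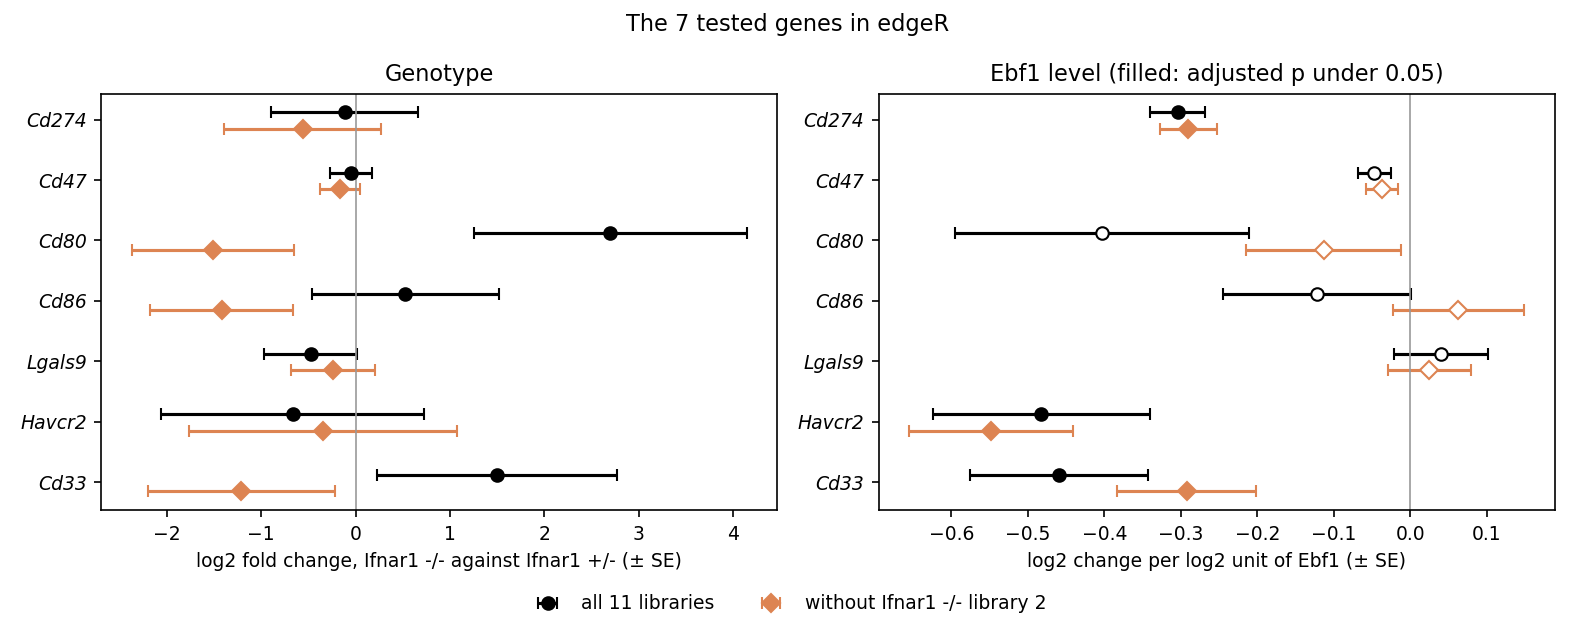
Fitted values of the 7 tested genes from edgeR with 1 SE, for labelled genotype on the left (log2 fold change) and for Ebf1 level on the right (log2 change per log2 unit of Ebf1), with all 11 libraries in black and without Ifnar1 -/- library 2 in orange. On the left no value passed, and Cd80, Cd86 and Cd33 change sign without that library, from 1.5005 to -1.21 for Cd33. On the right Cd274, Havcr2 and Cd33 are filled with and without it.

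Other checkpoint ligands went in both directions with Ebf1. Of 27 listed, 21 were tested, and 4 were lower and 5 higher with Ebf1, while 0 passed by genotype. These are 19% and 23.8% of the 21, against 14.7% and 14.2% of all genes, and the median slope was -0.074 against -0.0061. H2-T23, which encodes the non-classical class I molecule Qa-1, had 804 to 1679 CPM in Ebf1-low and 153 to 316 CPM in Ebf1-high libraries (slope -0.27, SE 0.031, edgeR adjusted p = 0.000474). Raet1e, a ligand gene of the NK-cell receptor NKG2D, went the other way, with 0 to 0.422 CPM against 4.62 to 34.0 CPM (slope 0.82, SE 0.12, edgeR adjusted p = 0.00139). Hmgb1, an alarmin gene whose product also binds TIM-3, had 441 to 946 CPM in Ebf1-low and 1440 to 3019 CPM in Ebf1-high libraries (slope 0.18, SE 0.031, edgeR adjusted p = 0.00257). Pdcd1lg2, Lgals3 and Cd200r3 were the other genes that were lower, and Cd40, Btnl2 and Ulbp1 the others that were higher. By genotype the smallest unadjusted p belonged to Lgals1 (log2 fold change 1.02, SE 0.51), Vsir (2.45, SE 1.34) and Tnfrsf14 (0.64, SE 0.40), for which Ifnar1 -/- 2 held the highest value, 975 CPM for Vsir, the gene of the checkpoint protein VISTA.

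Receptors that pair with these ligands were measured in the same AML RNA. Of 24 listed, 16 were tested, and 5 were lower and 2 higher with Ebf1, or 31.2% and 12.5% against 14.7% and 14.2% of all genes. The median slope was -0.32, against -0.0061 over all genes. Lilrb4a, an inhibitory receptor gene of myeloid cells, had 311 to 2656 CPM in Ebf1-low and 25.1 to 134 CPM in Ebf1-high libraries (slope -0.45, SE 0.088, edgeR adjusted p = 0.00519). Pirb, another inhibitory receptor gene, had 65.9 to 464 CPM against 4.90 to 32.2 CPM (slope -0.39, SE 0.077, edgeR adjusted p = 0.00532). Pdcd1, Cd200r1 and Cd200r4 were the other lower genes, and the costimulatory receptor gene Icos and the B-cell Siglec gene Siglecg were higher. Tnfrsf9, Siglecf and Sirpa had the smallest unadjusted p by genotype and did not pass. Counting may divide the reads of Pirb, Lilrb4a, Cd200r4, H2-T23 and Raet1e among close relatives of their families, so their levels are uncertain. Sirpa, whose product is the CD47 receptor, averaged 21.9 ± 14.6 CPM (SD, n = 6) over Ifnar1 +/- and 77.8 ± 141 CPM (SD, n = 5) over Ifnar1 -/- libraries, with 328 CPM in Ifnar1 -/- 2.

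Genes that process, stabilise or induce the ligands were all 14 tested, and 5 were lower and 2 higher with Ebf1, or 35.7% and 14.3% where all genes gave 14.7% and 14.2%. Cmtm6, whose product keeps PD-L1 at the cell surface, had 54.2 to 200 CPM in Ebf1-low and 29.6 to 39.5 CPM in Ebf1-high libraries (slope -0.15, SE 0.034, edgeR adjusted p = 0.00864). The 200 CPM was that of Ifnar1 -/- 2, and no other library exceeded 96.1 CPM. Stat3, a transcription factor gene of cytokine signalling, had 188 to 316 CPM against 74.1 to 110 CPM (slope -0.17, SE 0.027, edgeR adjusted p = 0.00215). Jak1, Jak2 and Qpctl were the other lower genes. Nlrc5, the transactivator gene of class I antigen presentation, was higher (slope 0.45, SE 0.070, edgeR adjusted p = 0.00199), with 0.206 to 6.22 CPM against 14.3 to 32.8 CPM, and so was Adam17, a sheddase gene. Irf1, which induces Cd274 downstream of interferon, averaged 42.9 ± 9.92 CPM (SD, n = 6) over Ifnar1 +/- and 53.9 ± 13.8 CPM (SD, n = 5) over Ifnar1 -/- libraries and passed neither test. Thbs1, the gene of a secreted CD47 ligand, had 344 CPM in Ifnar1 -/- 2 and did not pass. The median slope of the list was -0.0074, near the -0.0061 of all genes.

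Other antigens of leukaemic cells also split in both directions. Of 30 listed, 29 were in the table and 27 were tested, and 5 were lower and 4 higher with Ebf1. At 18.5% and 14.8% these shares lay near the 14.7% and 14.2% of all genes, and the median slope was -0.083. Cd22, the gene of a B-lineage antigen, was higher, with 0.292 to 1.10 CPM in Ebf1-low and 78.8 to 164 CPM in Ebf1-high libraries. Cd9, a tetraspanin gene, had 115 to 723 CPM against 12.3 to 62.0 CPM and was lower (slope -0.34, SE 0.072, edgeR adjusted p = 0.00734). The 723 CPM was that of Ifnar1 -/- 2, and no other library exceeded 362 CPM. Fcgr3, Cd82, Cd300lf and Spn were the other lower genes, and Fut4 was also higher. By genotype the smallest unadjusted p belonged to Clec12a, Csf2ra and Cd7, none of which passed. Clec12a, a lectin gene known as an antigen of human AML, had 776 CPM in Ifnar1 -/- 2, and Csf2ra, a GM-CSF receptor gene, had 410 CPM there.

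**Figure D4:**
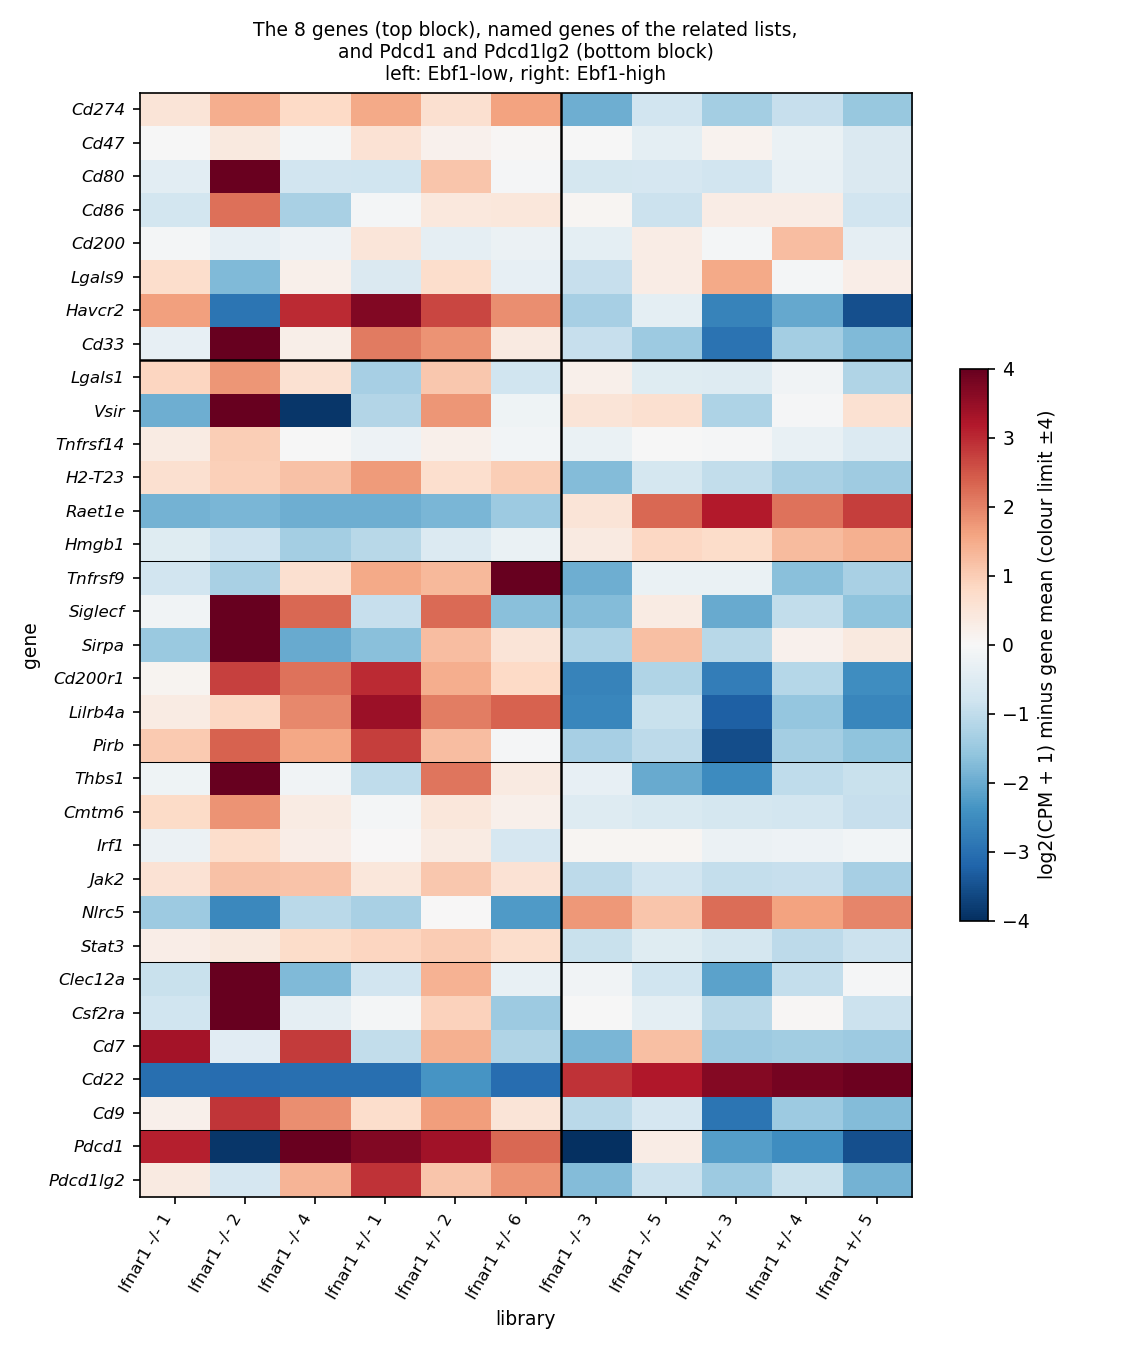
Levels of the 8 genes (top block), named genes of the 4 related lists, and Pdcd1 and Pdcd1lg2 (bottom block) in 11 libraries, as log2(CPM + 1) minus the mean of the gene over all libraries, with colours limited to 4 units either way. Ebf1-low libraries are left of the line. Cd274, Havcr2, Cd33, Cd200r1, Lilrb4a and Pirb are mostly red on the left and blue on the right, with Ifnar1 -/- library 2 blue for Havcr2 (4.70 CPM) and Pdcd1 (15.6 CPM).

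For each of the 8 genes the genes most like it were found by Pearson correlation of log2 CPM over the 11 libraries among 11469 candidates. Each pair of genes was read in the same libraries, which fall into 2 clusters by Ebf1, so these values are a description. Cd274 was most like Nt5c3, Pla2g4a and Atp6v0a1 (r = 0.98 for each). Havcr2 was most like Abca5, Trim58 and Tfe3 (r = 0.97 to 0.98), and Cd33 was most like Ccr1, Arl4c and S100a11 (r = 0.98 to 0.99). For Lgals9 the nearest were Efcab14, Epsti1 and Slc18a1 (r = 0.93 to 0.94), and for Cd47 they were Pabpc1l, Chmp1b and Usp19 (r = 0.90 to 0.94). The nearest genes of Cd80 were Timp2, Bcl2a1a and Tbc1d10b (r = 0.95 to 0.97), those of Cd86 were mt-Rnr1, Pias2 and mt-Atp8 (r = 0.90 to 0.97), and those of Cd200 included Dst and Tmem17 (r = 0.83 and 0.80).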

How the data were processed

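RNA of 11 mouse AML samples was sequenced. The values the authors deposited are estimated counts of reads per gene, unscaled between libraries. In each library 10.0% to 11.3% of the values were fractional. Per the submitters' processing notes bcl2fastq and DRAGEN were used, and their versions and roles, the genome build and the annotation are not given in the sources here. The labels' protocols name a Qiagen micro-scale kit for the RNA and a Clontech SMART-type kit for the libraries.

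The table held 55774 rows. In it 168 identifiers were repeated in identical rows, and dropping 287 copies left 55487 genes, of which 55141 had a symbol in the reference table. Unnamed rows, up to 0.0219% of the counts of a library, were kept in the totals.

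Counts were rounded and filtered with filterByExpr, which left 14521 genes, and TMM factors ran from 0.682 to 1.13. Both comparisons used edgeR 4.0.16 in R 4.3.3 (glmQLFTest after a robust glmQLFit), two-sided, with Benjamini-Hochberg adjustment over all genes tested and a threshold of 0.05. The SE is the absolute log2 value divided by the square root of F. Genotype was fitted alone, and log2(Ebf1 CPM + 1) was fitted with genotype as a second term. The Ebf1 classes lie on either side of the widest gap of Ebf1 on that scale, and they were described by ranges and not tested. Promoter sequences and motif shares used RefSeq windows on GRCm38.p6. The edgeR steps were run on simulated data as a check of the code. The simulated libraries were given a lower spread than the real ones, so this does not measure power or error here.

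The 8 genes and the 4 related lists (other checkpoint ligands, partner receptors, genes that process or stabilise ligands, other leukaemia antigens) were chosen with earlier results of these data known. Named genes of a list are the 3 with the smallest unadjusted p in each fit, and genes that passed the Ebf1 fit are also named. A few genes that these rules name are not reported here. Others named for their values were chosen after these were seen. Genes of similar pattern are the 3 with the highest Pearson correlation (prior count of 2, mean of at least 1 CPM), without predicted and clone-named genes.

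Alternatives were DESeq2 1.42.0, limma 3.58.1 voom with quality weights, other scalings and filters, robust=FALSE, each library left out, the replicate number as a block, an Ebf1 covariate, fits within an Ebf1 class, no genotype term, and a B-lineage covariate of 5 genes. A fit without Ifnar1 -/- 2 and Ifnar1 +/- 6 was added after seeing the data. Intervals from 3 counts cover counting error only.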

Additional observations from a re-analysis of the deposited data

Results flagged for a closer look

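Of 16 sets of values (8 genes in each labelled genotype), 4 held a library whose gap to its nearest neighbour took an unusually large part of the range. The cut-offs flag about 1 in 20 sets of normally distributed values. CPM here is skewed and mixes the Ebf1 classes, so that rate need not apply. The flags are also not independent, since Ifnar1 -/- 2 recurs among them. In Ifnar1 -/- libraries, library 2 stood out for Cd33 with 496 CPM, where the other 4 had 8.09 to 28.4 CPM. It stood out for Cd80 with 31.4 CPM, where the others had 0.221 to 0.556 CPM. It also stood out for Cd86 with 11.3 CPM, where the others had 0.0737 to 1.79 CPM. In Ifnar1 +/- libraries, library 2 stood out for Cd80 with 3.51 CPM, where the other 5 had 0.201 to 1.01 CPM. The macrophage markers Adgre1 and Csf1r had 762 and 274 CPM in Ifnar1 -/- 2, where no other library exceeded 61.3 and 56.7 CPM, and their part in these values was not tested.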

How the results depend on the processing

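By labelled genotype, 0 of the tested members of the 8 genes passed under any of the alternatives run. DESeq2 gave Cd80 no adjusted p (log2 fold change 2.78, SE 1.27), so that fit does not decide on Cd80. Over all genes DESeq2 called 3 (Prf1, Fyttd1 and Nrp2, named after their values were seen), and the other alternatives called 0. The sign of the genotype log2 fold change was not stable. With limma voom it became 0.84 for Cd274, 0.089 for Cd47, -0.22 for Cd80, -1.43 for Cd86 and 2.75 for Havcr2. Within Ebf1-high libraries it became 0.028 for Cd47, -0.50 for Cd80, -0.57 for Cd86 and 2.002 for Havcr2, and within Ebf1-low libraries 0.0081 for Lgals9. Without Ifnar1 -/- 2 and Ifnar1 +/- 6 together it was -1.51 for Cd80, -1.32 for Cd86 and -1.29 for Cd33. Leaving out each library gave -0.56 to 0.25 for Cd274, -0.16 to 0.083 for Cd47, -1.51 to 3.70 for Cd80, -1.42 to 0.84 for Cd86, -1.85 to 0.24 for Havcr2 and -1.21 to 2.06 for Cd33.

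With Ebf1, all fits that left out a library called 2 or 3 of the 7 genes. Over all genes these fits called 2633 to 5242, with 2775 without Ifnar1 +/- 4 and 2633 without Ifnar1 +/- 5, against 4195 with all libraries, and limma voom called 6486. The slope of Cd86 was 0.015 in limma voom, 0.094 without Ifnar1 -/- 2 and Ifnar1 +/- 6, and -0.15 to 0.063 over the fits that left out a library. The slope of Lgals9 was -0.0065 in limma voom and -0.0042 without those 2 libraries. The cause was not tested.

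No label used here pairs the samples by replicate number. The correlation of same-numbered libraries, after subtracting genotype means, was 0.41, 0.15, 0.58, -0.55 and 0.52 for numbers 1 to 5. It cannot decide whether they are paired, because the Ebf1 classes enter it and libraries of unlike number were not compared. The negative value is that of number 4, whose libraries differ in Ebf1 class. With the replicate number as a block, 0 of the 7 genes and 0 of all genes passed for Ebf1. By construction numbers 1, 2, 3 and 5 each hold libraries of a single Ebf1 class, so number 4 alone carries that contrast. In this block the slope was -0.24 for Cd274, -0.43 for Havcr2, -0.13 for Cd33, 0.21 for Cd80, 0.45 for Cd86 and -0.093 for Lgals9, and the genotype fold change was 0.35 for Cd274, -0.72 for Cd86 and 0.97 for Havcr2, with 0 genes called. A filter of 5 CPM in 5 libraries also removed Cd80 and Cd86, which then had no value. Depth limits Cd200, which both filters removed, and Cd80 and Cd86 in libraries with few counts.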
